A study of Mus musculus with 16 samples.

Results

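The cytosolic sensors of foreign RNA and DNA, together with the enzymes that keep the cell's own nucleic acids from triggering them, were followed as 9 genes in mouse astrocytes. The genes were *Rigi*, *Ifih1*, *Dhx58*, *Zbp1*, *Cgas*, *Trex1*, *Adar*, *Samhd1* and *Eif2ak2*. They were chosen by name for their known roles, with earlier results of these data known. All 9 were among the 16707 genes of the deposited log2 CPM table (CPM, read counts scaled to the library's size), where *Rigi* is written under its older symbol *Ddx58*.

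Astrocytes were taken from the brains of P6 pups, selected with beads against the astrocyte surface antigen ACSA2 and grown without serum for about 10 days. Cultures came from 4 WT litters (C57BL/6J) and 4 litters lacking *Nlrx1* in every cell (*Nlrx1*-/-, on the same strain, called KO in plots and litter names). One well of each litter received vehicle (water), and the other received lipopolysaccharide (LPS, from the outer membrane of bacteria) at 500 ng/mL with interferon gamma (IFNγ) at 10 ng/mL, for 24 h. Poly-A RNA of these 16 wells was sequenced without strand information, and each well pooled the cells of its set of pups.

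RIG-I (encoded by *Rigi*) and MDA5 (encoded by *Ifih1*) are helicases that bind viral double-stranded RNA in the cytosol and signal through the mitochondrial adaptor MAVS, while cGAS binds cytosolic DNA and makes the second messenger that activates STING. Both routes lead to type I interferon, and interferon in turn raises the transcription of many of the sensors themselves. NLRX1 is a mitochondrial protein of the NOD-like receptor family that has been described as a brake on such signalling, which is the reason for asking whether the sensors differ without it.

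Interferon acts on its target genes through 2 well-known DNA elements, the interferon-stimulated response element (ISRE) and the gamma-activated sequence (GAS). The ISRE core (GAAA, any 2 bases, GAAA) and the GAS letters (TTC, any 3 bases, GAA) were searched on both strands of the RefSeq promoter windows of GRCm38.p6, each with 250 bases before and 50 bases after a transcript start. Windows were found for 7 of the 9 genes, 10 windows in all, and none for *Dhx58* and *Zbp1*. The ISRE core was found in 3 of these 10 windows, and it was found in 3.44% of all 32851 windows. The GAS letters were found in 3 of 10 windows and in 8.3% of all windows. The stretches with matches are shown because they are the letters through which interferon is known to act on genes of this kind, written 5′ to 3′ on the strand of the gene with the matching letters in capitals.
*Ifih1*, ISRE core, minus strand of chr2:62646206-62646235: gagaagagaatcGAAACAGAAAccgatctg
*Rigi*, ISRE core read on the opposite strand, minus strand of chr4:40239804-40239833: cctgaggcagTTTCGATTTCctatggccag
*Eif2ak2*, ISRE core, minus strand of chr17:78882535-78882564: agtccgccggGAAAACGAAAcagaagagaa
*Eif2ak2*, GAS, minus strand of chr17:78882731-78882760: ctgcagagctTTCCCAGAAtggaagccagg
*Samhd1*, GAS, minus strand of chr2:157135312-157135341: acaccaccctTTCGGAGAAacacaagggcg
*Adar*, GAS, plus strand of chr3:89730730-89730759: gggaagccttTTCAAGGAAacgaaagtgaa

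The ISRE cores began at base 33 of the transcript of *Ifih1*, at base 3 of that of *Rigi* and at base 19 of that of *Eif2ak2*, so all 3 lay just downstream of the annotated start. Within the 250 bases before the start alone, 0 of the 10 windows held the core, against 2.98% of all windows. The GAS letters lay 235 bases before the start of *Samhd1*, 178 bases before that of *Eif2ak2* and at base 23 of the transcript of the third *Adar* window. These are matches of letters, and binding was not measured.

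Salmon assigned between 27259420 and 43752903 read pairs to transcripts per library, with a median of 35554625. *Nlrx1* itself was at 4.08 log2 CPM or more in every WT library and at 2.96 or less in every *Nlrx1*-/- library, so the libraries fell apart as their genotype labels say, although reads of the gene remained. All 10 astrocyte markers fixed for the check were present, with a summed level between 5386 and 10848 CPM. Of 11 markers of microglia and macrophages, which carry many nucleic acid sensors, *P2ry12* had between 2 and 56 reads in a library and the other 10 had between 0 and 16. *Aif1* was at 0 in 14 of the 16 libraries, and *Cx3cr1*, *Tmem119* and *Itgam* each in 11. The 11 markers together had 20 to 55 reads in WT vehicle, 17 to 72 in WT LPS + IFNγ, 10 to 39 in *Nlrx1*-/- vehicle and 41 to 63 in *Nlrx1*-/- LPS + IFNγ libraries. Summed markers of oligodendrocyte precursors lay between 2233 and 3045 CPM in WT vehicle, 1909 and 2822 in WT LPS + IFNγ, 2357 and 3672 in *Nlrx1*-/- vehicle and 2103 and 2721 in *Nlrx1*-/- LPS + IFNγ. Those of oligodendrocytes lay, in the same order, between 586 and 931, 366 and 728, 245 and 800, and 194 and 444 CPM. The neuronal markers lay between 14.5 and 20.6 CPM in vehicle and between 58.8 and 91.1 CPM in LPS + IFNγ, most of it *Tubb3*. The part of these other cells in the results was not tested, and in bulk RNA fewer cells of a type and less RNA per cell cannot be told apart.

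In unstimulated WT astrocytes *Adar*, *Eif2ak2* and *Samhd1* were the most abundant of the group, and *Ifih1*, *Cgas* and *Zbp1* were the lowest of the genes that could be placed. Levels of different genes were compared in TPM (a transcript abundance scaled for depth and for transcript length), as mean ± SD of 4 litters. *Adar*, which deaminates adenosine in double-stranded RNA, was highest at 28.0 ± 2.33 TPM in WT vehicle. *Eif2ak2*, encoding the kinase PKR that halts translation when it binds double-stranded RNA, followed at 22.0 ± 1.37 TPM and overlapped with *Samhd1*, a dNTPase, at 21.7 ± 3.67 TPM. *Trex1*, the main cytosolic exonuclease for DNA, was at 10.2 ± 1.83 TPM and overlapped with *Rigi* at 8.84 ± 0.65 TPM. *Ifih1* at 4.37 ± 0.60 TPM and *Cgas* at 1.07 ± 0.55 TPM were lower without overlap. *Zbp1* was at 0 TPM in all 4 WT vehicle libraries. In *Nlrx1*-/- vehicle cultures *Adar*, *Samhd1* and *Eif2ak2* again came first, at 25.3 ± 1.25, 22.6 ± 2.36 and 19.4 ± 2.05 TPM. *Dhx58* was not placed in the vehicle order, because nearly all of its reads in those libraries lay on a transcript that could not be tied to the gene and its length.

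After LPS + IFNγ the order changed. In WT libraries *Samhd1* was now the most abundant at 165 ± 18.0 TPM, above *Eif2ak2* at 90.7 ± 7.63 TPM, and neither overlapped with the next gene. *Adar* at 65.4 ± 7.28, *Zbp1* at 60.2 ± 16.9, *Trex1* at 47.2 ± 10.5, *Rigi* at 41.1 ± 10.5 and *Ifih1* at 33.4 ± 4.85 TPM formed a chain in which each gene overlapped with its neighbour. *Dhx58* at 11.1 ± 2.84 TPM and *Cgas* at 2.42 ± 0.94 TPM stood apart at the bottom. *Zbp1* thus passed from the last place to the middle of the group, while *Cgas* was the least abundant of the genes with stimulation.

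**Figure D1:**
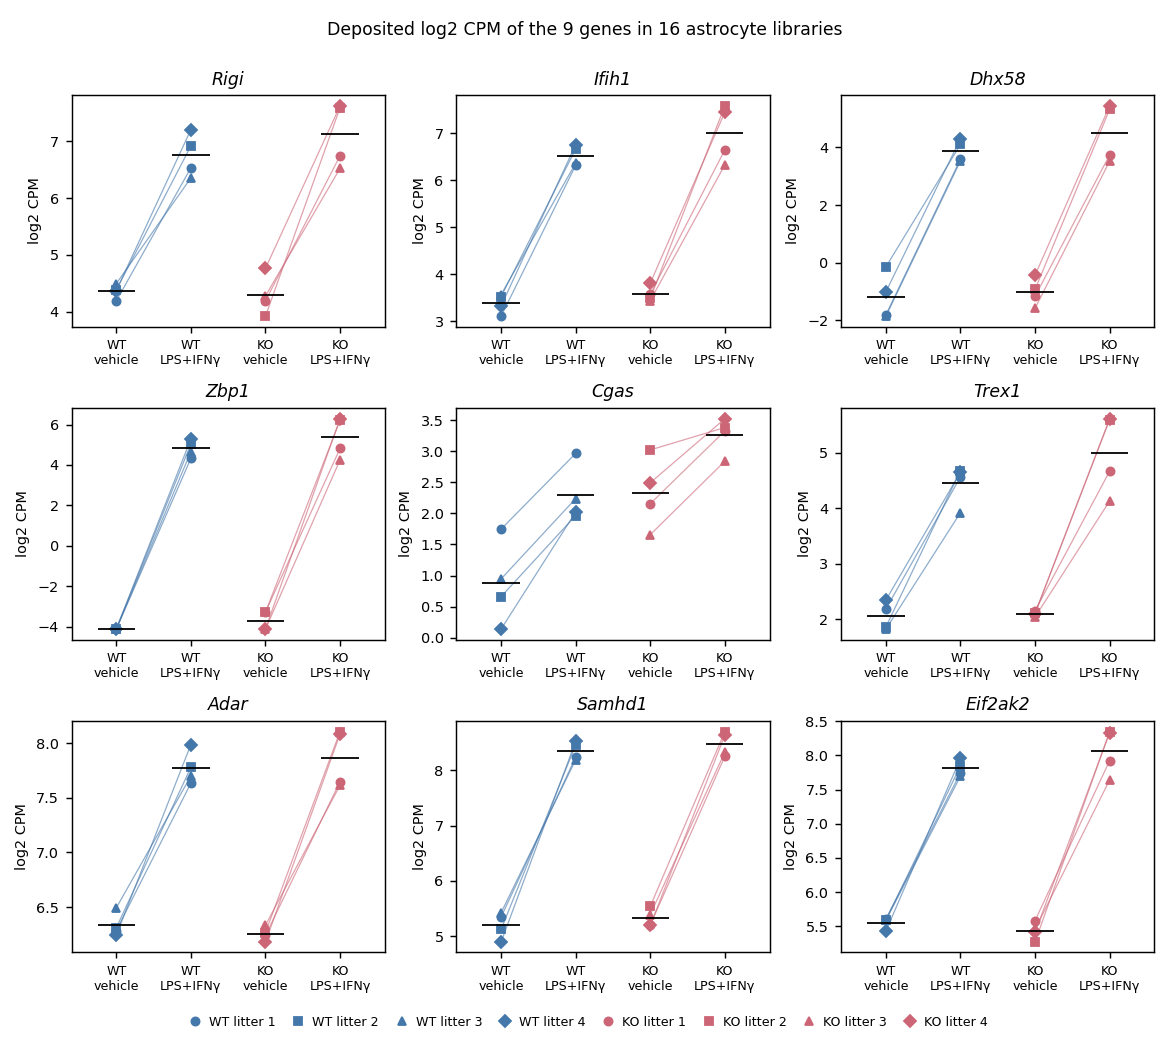
Deposited log2 CPM (y axis) of the 9 genes in the 4 conditions (x axis), with 1 symbol per library, lines joining the vehicle and LPS + IFNγ libraries of a litter and a black bar at the mean of 4 litters. Every line of every gene rises, and the *Cgas* lines of the *Nlrx1*-/- litters start higher than 3 of the 4 WT lines.

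The first question was how each gene answered to LPS + IFNγ. All 9 genes rose in WT astrocytes and all 9 rose in *Nlrx1*-/- astrocytes (edgeR's quasi-likelihood test with litters as blocks, Benjamini-Hochberg adjusted p between 1.34e-08 and 0.00014 in WT and between 4.72e-09 and 0.00136 in *Nlrx1*-/-). Among all 16066 genes tested, 24.3% rose in WT and 25.6% in *Nlrx1*-/- astrocytes, while 19.8% and 23.9% fell. Without *Zbp1*, whose fold change has no measurable base, the median log2 fold change of the other 8 genes was 2.41 in WT and 2.89 in *Nlrx1*-/-, where the median of all genes was -0.01 and -0.03. The 3 helicases of the RIG-I family are described first.

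*Rigi* was at 4.19, 4.38, 4.49 and 4.37 log2 CPM in the vehicle libraries of WT litters 1 to 4 and at 6.53, 6.92, 6.35 and 7.21 after LPS + IFNγ. In *Nlrx1*-/- litters 1 to 4 it was at 4.19, 3.92, 4.28 and 4.76 in vehicle and at 6.75, 7.59, 6.52 and 7.63 after LPS + IFNγ. The treated and untreated libraries were far apart in both genotypes, and *Nlrx1*-/- litters 2 and 4 were the highest of all treated libraries. The gene rose 5.28-fold in WT (log2 2.40, SE 0.20) and 7.23-fold in *Nlrx1*-/- (log2 2.85, SE 0.20). *Rigi* lies on the minus strand of chr4:40203772-40239852 of GRCm39.

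*Ifih1*, which encodes MDA5, the sensor of long double-stranded RNA, was at 3.11, 3.52, 3.57 and 3.32 log2 CPM in the vehicle libraries of the WT litters and at 6.32, 6.67, 6.36 and 6.76 after LPS + IFNγ. Its *Nlrx1*-/- values were 3.57, 3.49, 3.44 and 3.81 in vehicle and 6.65, 7.59, 6.33 and 7.45 after LPS + IFNγ. The vehicle ranges of the genotypes overlapped, and the treated *Nlrx1*-/- libraries split into a higher pair, litters 2 and 4, and a pair within the WT range. *Ifih1* rose 8.86-fold in WT (log2 3.15, SE 0.18) and 10.7-fold in *Nlrx1*-/- (log2 3.43, SE 0.18). The gene lies at chr2:62425714-62476607 of GRCm39.

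*Dhx58* encodes LGP2, which lacks the signalling domains of the other members of the family and tunes their activity. It was barely read in vehicle, at -1.81, -0.14, -1.85 and -1.01 log2 CPM in the WT litters and -1.16, -0.93, -1.58 and -0.44 in the *Nlrx1*-/- litters. After LPS + IFNγ it stood at 3.59, 4.10, 3.53 and 4.30 in the WT litters and 3.74, 5.32, 3.52 and 5.44 in the *Nlrx1*-/- litters. Behind these levels were between 7.46 and 30.5 reads per vehicle library and between 335 and 1530 per treated library. The fold change was the largest of the 8 genes with reads in every vehicle library, 36.9-fold in WT (log2 5.21, SE 0.24) and 55.1-fold in *Nlrx1*-/- (log2 5.78, SE 0.24), from counts recovered from the deposited CPM. The size of the fold change depended on the scale, and limma on log2(CPM + 1) gave 3.47 in WT and 4.04 in *Nlrx1*-/- on the log2 scale. *Dhx58* (chr11:100585710-100595097, GRCm39) shares exon bases with the antisense gene *Dhx58os*, and unstranded reads of the pair cannot be told apart.

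*Zbp1* encodes the sensor of left-handed Z-form nucleic acids, which can start necroptosis through RIPK3 and MLKL. It had 0 reads in the vehicle libraries of all 4 WT litters and of *Nlrx1*-/- litters 3 and 4, and 1 read in those of *Nlrx1*-/- litters 1 and 2. After LPS + IFNγ it had 610, 1249, 729 and 1732 reads in the WT litters and 1010, 2360, 787 and 2959 in the *Nlrx1*-/- litters. Against the 3 reads that a count of 0 allows per library, the WT litters were at least 230-, 366-, 406- and 578-fold higher after LPS + IFNγ. *Nlrx1*-/- litters 3 and 4 were at least 267- and 1252-fold higher. For litters 1 and 2, each with a single vehicle read, the ratios were 1096 (exact Poisson 95% interval 197 to 43309) and 3145 (564 to 124214), which cover counting error only. The gene thus went from a level at or near 0 to at least 39.9 TPM in every litter. In WT its range overlapped with those of *Adar* and *Trex1*. In *Nlrx1*-/- litters 2 and 4 it was at 145 and 156 TPM, above *Adar* (77.9 and 78.0 TPM) and *Trex1* (96.9 and 99.7 TPM). In the treated libraries 66.5% of its TPM in WT and 66.0% in *Nlrx1*-/- lay on the transcript NM_001139519.1, and the rest on NM_021394.2. *Zbp1* lies at chr2:173033815-173060724 of GRCm39.

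*Cgas*, the sensor of cytosolic DNA, had the lowest level of the group after LPS + IFNγ. Its response was the smallest of the group in *Nlrx1*-/- astrocytes and about equal to that of *Adar* in WT. In the WT litters it was at 1.75, 0.66, 0.95 and 0.14 log2 CPM in vehicle and at 2.97, 1.97, 2.24 and 2.02 after LPS + IFNγ. In the *Nlrx1*-/- litters it was at 2.16, 3.02, 1.66 and 2.49 in vehicle and at 3.33, 3.38, 2.84 and 3.52 after LPS + IFNγ. Its spread between untreated litters was wide, and 3 of the 4 *Nlrx1*-/- litters were above every WT litter in vehicle. *Cgas* rose 2.71-fold in WT (log2 1.44, SE 0.19) and 1.90-fold in *Nlrx1*-/- (log2 0.93, SE 0.18). In *Nlrx1*-/- litter 2, where the vehicle level was the highest, the rise was only 0.36 log2 units. Without litters as blocks the *Nlrx1*-/- response was 0.86 on the log2 scale and did not pass the threshold (edgeR, adjusted p = 0.0528). *Cgas* (chr9:78337802-78350535, GRCm39) shares exon bases with the antisense gene *Gm68924*.

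The 3 limiters of self-recognition rose with the sensors. *Trex1* was at 2.18, 1.86, 1.82 and 2.34 log2 CPM in the vehicle libraries of the WT litters and at 4.57, 4.68, 3.92 and 4.65 after LPS + IFNγ. The *Nlrx1*-/- litters were at 2.15, 2.10, 2.04 and 2.10 in vehicle and at 4.67, 5.60, 4.13 and 5.62 after LPS + IFNγ. The untreated *Nlrx1*-/- libraries were nearly equal, and after treatment litters 2 and 4 stood well above the other litters of both genotypes. *Trex1* rose 5.33-fold in WT (log2 2.41, SE 0.22) and 7.58-fold in *Nlrx1*-/- (log2 2.92, SE 0.23). Its exons (chr9:108887001-108888802, GRCm39) overlap those of *Atrip* on the same strand and of *Shisa5* on the other strand. The change of *Shisa5* was not examined. *Atrip*, a partner of the DNA damage kinase ATR, changed by -0.16 in WT and 0.10 in *Nlrx1*-/- on the log2 scale and passed the test in neither (edgeR, adjusted p = 0.275 and 0.477). Between the genotypes after LPS + IFNγ, *Atrip* was higher in *Nlrx1*-/- by 0.56 on the log2 scale (SE 0.21, edgeR adjusted p = 0.0946). Its part in the *Trex1* difference between the genotypes was not tested.

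*Adar*, the RNA editing enzyme, was at 6.28, 6.31, 6.49 and 6.24 log2 CPM in WT vehicle and at 7.63, 7.78, 7.70 and 7.99 in WT LPS + IFNγ. The *Nlrx1*-/- litters were at 6.24, 6.27, 6.33 and 6.18 in vehicle and at 7.65, 8.11, 7.62 and 8.08 after LPS + IFNγ. The genotypes overlapped without stimulation, and *Nlrx1*-/- litters 2 and 4 were again the highest after it. The gene rose 2.71-fold in WT (log2 1.44, SE 0.11) and 3.03-fold in *Nlrx1*-/- (log2 1.60, SE 0.11). *Adar* (plus strand of chr3:89622329-89660753, GRCm39) shares exon bases with *Chrnb2* on the other strand.

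*Samhd1*, which lowers the pool of nucleotides available for reverse transcription, reached the highest level of the group. It was at 5.35, 5.13, 5.42 and 4.90 log2 CPM in WT vehicle and at 8.24, 8.46, 8.19 and 8.52 in WT LPS + IFNγ. In the *Nlrx1*-/- litters it was at 5.20, 5.54, 5.39 and 5.20 in vehicle and at 8.25, 8.70, 8.33 and 8.63 after LPS + IFNγ. The genotypes were close in both treatments. The gene rose 8.86-fold in WT (log2 3.15, SE 0.14) and 8.79-fold in *Nlrx1*-/- (log2 3.14, SE 0.14), and it lies at chr2:156939453-156977187 of GRCm39.

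*Eif2ak2*, the effector kinase PKR, was at 5.61, 5.59, 5.59 and 5.43 log2 CPM in the vehicle libraries of the WT litters and at 7.74, 7.85, 7.70 and 7.96 after LPS + IFNγ. Its *Nlrx1*-/- values were 5.58, 5.27, 5.45 and 5.41 in vehicle and 7.92, 8.35, 7.64 and 8.33 after LPS + IFNγ. As for the sensors, the treated *Nlrx1*-/- litters 2 and 4 lay above all other libraries, and the untreated libraries overlapped. *Eif2ak2* (chr17:79159972-79190012, GRCm39) rose 4.78-fold in WT (log2 2.26, SE 0.14) and 6.17-fold in *Nlrx1*-/- (log2 2.62, SE 0.14). It shares exon bases with *Gm26637* and *Gm55596* on the other strand.

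**Figure D2:**
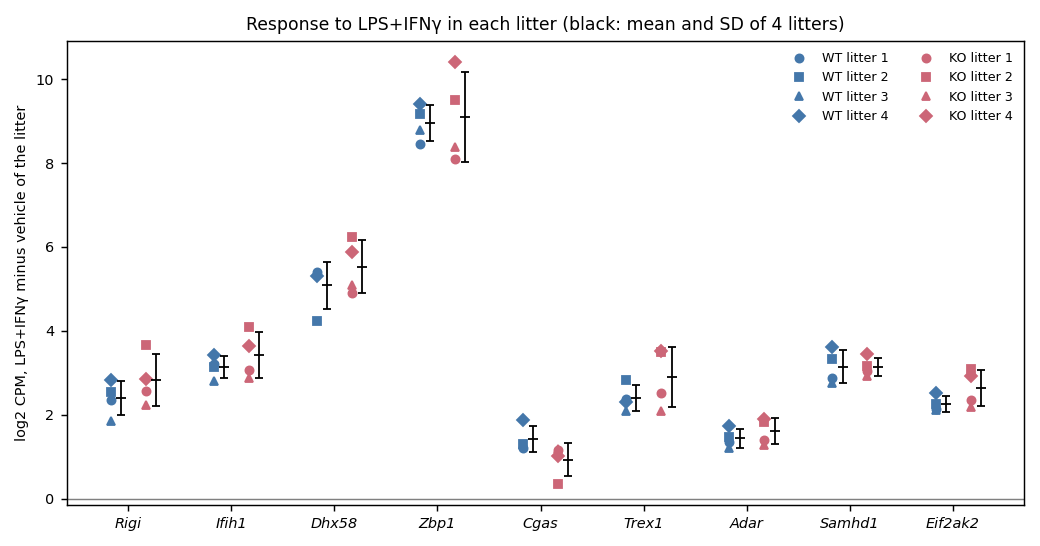
Difference in deposited log2 CPM between the LPS + IFNγ and the vehicle library of each litter (y axis) for the 9 genes (x axis), with WT litters in blue, *Nlrx1*-/- litters in red and the mean and SD of 4 litters in black. All 72 differences are above 0, and the genotypes overlap for every gene but *Cgas*, where the 4 *Nlrx1*-/- litters (0.36 to 1.18) lie below the 4 WT litters (1.22 to 1.88).

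Whether the response itself differed between the genotypes was tested as the interaction, the *Nlrx1*-/- response minus the WT response. No gene of the group passed the test with edgeR, DESeq2 or limma, and neither did any of the 16066 genes with edgeR (0%). That share holds for edgeR only, and the paper, which used DESeq2, reports genes elsewhere in the genome that passed for this interaction. At an unadjusted p under 0.05, edgeR and limma gave 0 of the 9 genes and DESeq2 gave 1, *Eif2ak2*, while edgeR gave 15.5% of all genes. The median interaction of the 8 genes without *Zbp1* was 0.32 on the log2 scale, and that of all genes was -0.02.

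The intervals of ± 2 SE around these differences leave room for effects in either direction for most genes. *Rigi* had an interaction of 0.45 (-0.09 to 0.99), *Ifih1* of 0.28 (-0.20 to 0.76) and *Dhx58* of 0.58 (-0.18 to 1.33) on the log2 scale. For *Trex1* it was 0.51 (-0.11 to 1.13), for *Adar* 0.16 (-0.15 to 0.47), for *Eif2ak2* 0.37 (-0.00 to 0.74) and for *Samhd1* -0.01 (-0.37 to 0.35). *Cgas* had the opposite sign, -0.51 (-1.02 to 0.00; adjusted p = 0.372). It was also the only one of the 9 genes whose litter responses did not overlap between the genotypes, with the *Nlrx1*-/- litters lower, a pattern found in 5.25% of all 16707 genes, where 3.06% had the *Nlrx1*-/- litters higher without overlap.

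The responses of most genes moved together within a litter, with exceptions. *Cgas* had its smallest response in *Nlrx1*-/- litter 2 (0.36), and *Dhx58* had its smallest in WT litter 2 (4.25). The median response of the 9 genes over litters 1 to 4 was 2.38, 2.82, 2.11 and 2.83 on the log2 scale for WT, with 2.56, 3.50, 2.25 and 3.44 for *Nlrx1*-/-. The ranges of these medians overlapped between the genotypes. On log2 CPM centred on the group means, *Rigi* and *Ifih1* had a Pearson r of 0.91 over the 16 libraries, as a description of libraries that share litters and normalization. Pairs of genes without *Cgas* ranged from 0.22 (*Samhd1* and *Dhx58*) upward to that value, while *Cgas* had an r between -0.08 (with *Rigi*) and 0.37 (with *Samhd1*).

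The next question was whether the levels differed between the genotypes within a treatment. In vehicle, 0 of the 9 genes passed the test with edgeR, and so did 0% of all 16066 genes, including *Nlrx1* itself (log2 -1.70, adjusted p = 0.051). At an unadjusted p under 0.05 there was 1 of the 9 genes, *Cgas*, and 19.5% of all genes. *Cgas* was 2.72-fold higher in *Nlrx1*-/- astrocytes (log2 1.44, SE 0.35, edgeR adjusted p = 0.11), from 1.07 ± 0.55 TPM in WT to 2.78 ± 1.07 TPM. DESeq2 called this difference (adjusted p = 0.00694) with 3.14% of all genes called higher, and limma called neither it nor any gene higher. With edgeR it was called without *Nlrx1*-/- litter 3 (log2 1.63, adjusted p = 0.0177), where 3.6% of all genes were called higher, or without WT litter 1 (log2 1.83, adjusted p = 0.0362), where 0.398% were. The levels of WT litter 1 and *Nlrx1*-/- litter 3 were the pair that made the genotypes overlap.

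The other genes were close in vehicle, with log2 differences of -0.09 (SE 0.24) for *Rigi*, 0.19 (SE 0.23) for *Ifih1* and 0.18 (SE 0.59) for *Dhx58*. For *Trex1* the difference was 0.03 (SE 0.28), for *Adar* -0.09 (SE 0.11), for *Samhd1* 0.12 (SE 0.13) and for *Eif2ak2* -0.13 (SE 0.13). None of the 9 genes was free of overlap between the genotypes, where 6.02% of all genes were without overlap and higher in *Nlrx1*-/- and 3.43% without overlap and lower.

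After LPS + IFNγ all 9 genes had a higher mean in *Nlrx1*-/- than in WT, and again 0 of 9 passed the test with edgeR, against 2.46% of all genes higher and 2.26% lower. Apart from *Cgas*, the genes were correlated with each other across libraries, so these directions are not independent. At an unadjusted p under 0.05, edgeR gave 3 of the 9 genes (*Cgas*, *Ifih1* and *Trex1*) and 28.2% of all genes. DESeq2 called 1, *Cgas*, with 8.29% of all genes called higher, and limma called 0, with 4.4% of all genes called higher. The median difference of the 8 genes without *Zbp1* was 0.46 on the log2 scale, and that of all genes was -0.02. *Cgas* had the largest difference, 0.92 (SE 0.34, edgeR adjusted p = 0.0966, DESeq2 adjusted p = 0.0428), followed by *Dhx58* at 0.84 (SE 0.40), *Zbp1* at 0.75 (SE 0.39), *Trex1* at 0.63 (SE 0.26) and *Ifih1* at 0.54 (SE 0.22). *Rigi* at 0.38 (SE 0.23), *Eif2ak2* at 0.26 (SE 0.12), *Samhd1* at 0.12 (SE 0.13) and *Adar* at 0.08 (SE 0.11) differed less.

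**Figure D3:**
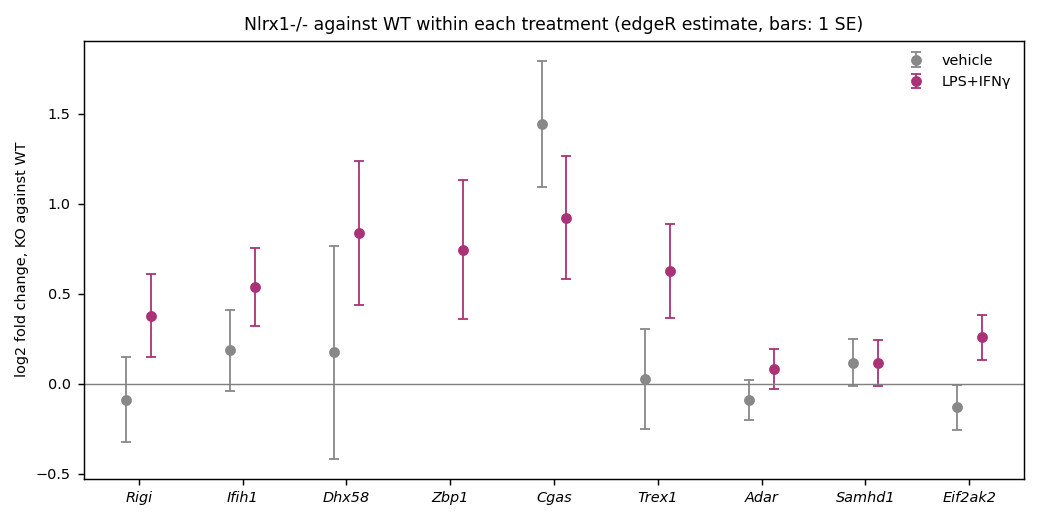
Log2 fold change of *Nlrx1*-/- against WT astrocytes (y axis) for the 9 genes (x axis) in vehicle (grey) and LPS + IFNγ (purple), as the edgeR estimate with bars of 1 SE, without *Zbp1* in vehicle. All 9 LPS + IFNγ estimates are above 0, from 0.08 for *Adar* to 0.92 for *Cgas*. *Cgas* has the largest estimate in vehicle (1.44), which did not pass the test (edgeR adjusted p = 0.11).

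These differences came from some of the litters. *Nlrx1*-/- litters 2 and 4 were the highest pair of the 8 treated libraries for 9 of the 9 genes, an arrangement seen for 3198 of the 16707 genes (19.1%). *Nlrx1*-/- litter 3 was the lowest of all 8 for *Dhx58*, *Zbp1*, *Adar* and *Eif2ak2*. No gene was therefore free of overlap between the genotypes, where 7.09% of all genes were without overlap and higher in *Nlrx1*-/- and 6.23% without overlap and lower. Without *Nlrx1*-/- litter 3, edgeR called 6 of the 9 genes higher in treated *Nlrx1*-/- astrocytes, *Cgas*, *Dhx58*, *Eif2ak2*, *Ifih1*, *Trex1* and *Zbp1*, with log2 differences between 0.38 for *Eif2ak2* and 1.09 for *Dhx58*. The same fit called 8.9% of all genes higher, or 11.5% on the recovered counts used for *Dhx58*. Without WT litter 1 it called 1, *Cgas* (log2 1.20, adjusted p = 0.0358), and 3.68% of all genes higher. With any other single litter left out it called 0 of the 9 genes. *Nlrx1*-/- litter 3 was the lowest treated *Nlrx1*-/- library for each of the 6 genes, so leaving it out raised their mean. Leaving out single litters moved the log2 difference between 0.32 and 0.72 for *Ifih1* and between 0.43 and 0.85 for *Trex1*. Summed markers of other cells also differed between the treated genotypes, with medians of 578 CPM in WT and 245 CPM in *Nlrx1*-/- for oligodendrocytes and of 8029 and 5786 CPM for astrocytes, and their part in these differences was not tested.

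**Figure D4:**
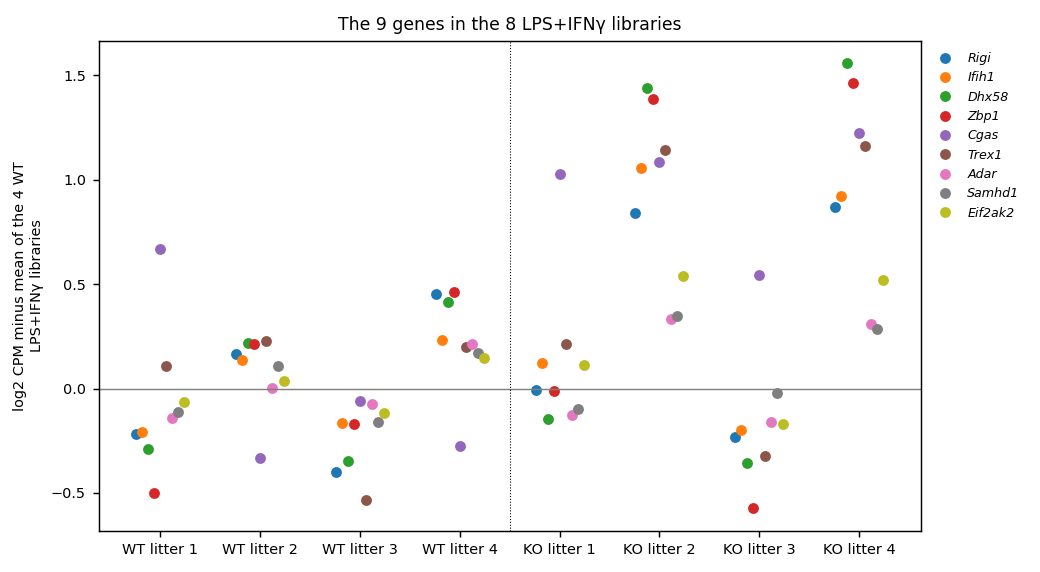
Log2 CPM of the 9 genes in the 8 LPS + IFNγ libraries (x axis), each minus the mean of the 4 WT LPS + IFNγ libraries (y axis), with 1 colour per gene. The points of *Nlrx1*-/- litters 2 and 4 all lie above 0 and above those of every other library of the same gene, while those of *Nlrx1*-/- litter 3 lie below 0 for every gene but *Cgas*.

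The transcripts behind the gene levels were compared as the share of a gene's TPM, since *Adar* is known to have a constitutive and an interferon-inducible promoter. The *Adar* transcripts were not tied to either promoter here. Among the 9 transcripts tested in *Adar*, *Trex1*, *Eif2ak2* and *Samhd1*, 4 changed their share with LPS + IFNγ over the 8 litters (exact two-sided sign-flip permutation test, p = 0.00781, the smallest that 8 litters allow, adjusted p = 0.0176). The shares within a gene add up to the whole, so transcripts of a gene are not independent, and Salmon divides reads that transcripts share by estimation.

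*Adar* gained a transcript. NM_001146296.1 was at 0 TPM in 7 of the 8 vehicle libraries and at 1.54 TPM in the other, that of WT litter 4. After LPS + IFNγ it was at 33.6, 20.7, 20.6 and 39.6 TPM in the WT litters and at 36.3, 30.9, 24.0 and 39.4 TPM in the *Nlrx1*-/- litters. Every treated library was thus above every vehicle library. Its share of the gene's TPM rose by 44.8 percentage points on average (SD 9.93, 8 of 8 litters). NM_001038587.4 held a mean of 17.8 TPM in WT vehicle and 17.2 TPM in WT LPS + IFNγ, and 16.8 and 15.2 TPM in *Nlrx1*-/-, while its share fell by 40.7 points (SD 8.26, 8 of 8 litters). The third transcript, NM_019655.3, went from 9.58 to 19.5 TPM in WT and from 7.53 to 20.8 TPM in *Nlrx1*-/-, and its share changed by -1.91 points (SD 8.93, adjusted p = 0.733 in the exact test).

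*Trex1* moved towards a single transcript. NM_001012236.1 held 0%, 61.1%, 45.4% and 66.9% of the gene's TPM in the vehicle libraries of the WT litters and 94.8%, 96.8%, 90.5% and 91.3% after LPS + IFNγ. In the *Nlrx1*-/- litters its share was 39.8%, 61.5%, 59.3% and 62.4% in vehicle and 93.7%, 97.6%, 90.9% and 98.9% after LPS + IFNγ. All treated libraries were above all untreated ones, with a mean gain of 44.8 points (SD 22.0, 8 of 8 litters). The other transcript, NM_011637.6, fell by the same share, and in TPM it was between 3.37 and 11.2 in vehicle and between 1.08 and 4.66 after LPS + IFNγ. The transcripts of *Eif2ak2* and *Samhd1* changed by less than 4 points on average and did not pass the test (adjusted p between 0.197 and 0.922 in the exact test). No transcript's change passed the test between the genotypes (exact permutation test of 4 against 4 litters, adjusted p = 0.83 for all 9).

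**Figure D5:**
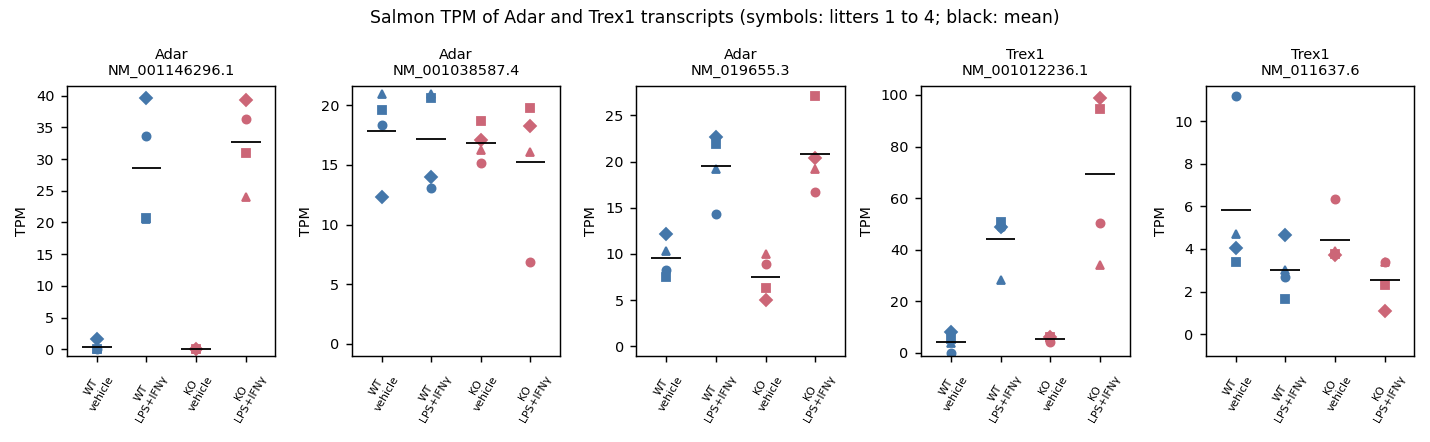
Salmon TPM (y axis) of 3 *Adar* and 2 *Trex1* transcripts in the 4 conditions (x axis), with 1 symbol per litter, WT in blue, *Nlrx1*-/- in red and a black bar at the mean. NM_001146296.1 of *Adar* and NM_001012236.1 of *Trex1* rise from near 0 TPM and from at most 8.18 TPM to between 20.6 and 98.6 TPM, whereas NM_001038587.4 stays between 6.85 and 20.9 TPM in all conditions.

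The genes around the sensors in the pathway responded more unevenly. Of 21 adaptors and signal transducers, 13 rose and 1 fell in WT astrocytes, and 14 rose and 0 fell in *Nlrx1*-/-, with median log2 fold changes of 0.37 and 0.39. Among all genes 24.3% rose and 19.8% fell in WT, and 25.6% rose and 23.9% fell in *Nlrx1*-/-. The largest were *Mlkl*, the executor of necroptosis downstream of ZBP1, at 6.70 (SE 0.48) in WT and 6.89 (SE 0.46) in *Nlrx1*-/-, and *Irf7*, the transcription factor that amplifies interferon, at 5.60 (SE 0.29) and 5.61 (SE 0.28). *Mavs*, the adaptor of RIG-I and MDA5, was added for its role and was level, at 5.18 ± 0.11 and 5.27 ± 0.07 log2 CPM in WT vehicle and LPS + IFNγ and at 5.27 ± 0.04 and 5.26 ± 0.08 in *Nlrx1*-/-.

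*Sting1*, the receptor of the messenger that cGAS makes, was the 1 adaptor of 21 called between the genotypes after LPS + IFNγ. Of all genes, 2.46% were called higher and 2.26% lower in that comparison. *Sting1* was at 3.81, 3.62, 2.92 and 3.05 log2 CPM in the treated WT litters and at 4.80, 5.57, 4.13 and 5.08 in the treated *Nlrx1*-/- litters. The genotypes did not overlap, as for 7.09% of all genes with *Nlrx1*-/- higher. The difference was 2.98-fold (log2 1.57, SE 0.39, edgeR adjusted p = 0.043). In vehicle the log2 difference was 1.17 (SE 0.42, adjusted p = 0.163), and the interaction was 0.39 (SE 0.20, adjusted p = 0.371). Leaving out single litters moved the adjusted p between 0.00582 and 0.151, and the call was kept only without *Nlrx1*-/- litter 3 or WT litter 1. With the 8 treated libraries fitted alone, *Sting1* was not called (log2 1.58, edgeR adjusted p = 0.0759).

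Of 30 other nucleic acid sensors tested, 17 rose and 1 fell in WT, and 19 rose and 3 fell in *Nlrx1*-/-, with medians of 2.04 and 1.58. The shares of all genes were 24.3% and 19.8% in WT, and 25.6% and 23.9% in *Nlrx1*-/-. Those with the largest fitted changes had almost no reads in vehicle, so their levels are given in place of folds. *Oas1g*, of the oligoadenylate synthetases that activate RNase L, had 0 reads in every WT vehicle library and between 71.6 and 221 after LPS + IFNγ. *Oas1a* of the same family had between 0 and 3.33 reads in *Nlrx1*-/- vehicle and between 1115 and 3976 after LPS + IFNγ. The members of this family are close in sequence, so the division of reads between them is uncertain. *Ifi211*, of the DNA-binding PYHIN family, had between 0 and 5.94 reads in the vehicle libraries of both genotypes and between 909 and 3072 after LPS + IFNγ. *Dhx15*, an RNA helicase, was the 1 gene of this list called between the genotypes in LPS + IFNγ (log2 0.32, SE 0.09, edgeR adjusted p = 0.0474), where 2.46% of all genes were called higher. Leaving out single litters moved its adjusted p between 0.0166 and 0.151. It was not called with the 8 treated libraries fitted alone (edgeR adjusted p = 0.0759).

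Of 19 further limiters of self nucleic acid tested, 5 rose and 3 fell in WT, and 5 rose and 7 fell in *Nlrx1*-/-, with medians of 0.03 and 0.01, near those of all genes. Of all genes, 24.3% rose and 19.8% fell in WT, and 25.6% rose and 23.9% fell in *Nlrx1*-/-, so the rises of this list were near the share of all genes. *Pnpt1*, a mitochondrial RNA exonuclease, rose by 1.26 (SE 0.17) in WT and 1.58 (SE 0.17) in *Nlrx1*-/- on the log2 scale. *Adarb2*, a relative of *Adar* without known editing activity, fell by 2.16 (SE 0.59) and 3.80 (SE 0.68). For the interaction, edgeR called 0 genes of the 3 lists, with 9 of 70 at an unadjusted p under 0.05, where 15.5% of all genes were, and limma called 0.

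For each gene of the group, the gene outside it whose log2 CPM followed most closely over the 16 libraries was named. The Pearson r, to which the treatment contributes, was 0.995 for *Rigi* with *Trim30a*, 0.995 for *Ifih1* with *Rnf213*, 0.994 for *Dhx58* with *Ifit1* and 0.997 for *Zbp1* with *Rnf213*. It was 0.971 for *Cgas* with *Nwd1*, the lowest of the 9, and 0.991 for *Trex1* with *Tlr3*. *Adar* went with *Cmpk2* (r = 0.996), *Eif2ak2* with *Mpeg1* (r = 0.997) and *Samhd1* with *Erap1* (r = 0.997). Among 12600 genes compared, the mean z-score of the 9 genes was closest to *Rnf213* (r = 0.998), *Nmi* (r = 0.997) and *Egln3* (r = 0.996). On log2 CPM centred on the group means, the r of the 9 pairs was lower, between 0.72 for *Samhd1* with *Erap1* and 0.93 for *Rigi* with *Trim30a*. That of the mean z-score was then 0.98 with *Rnf213*, 0.93 with *Nmi* and 0.85 with *Egln3*.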

How the data were processed

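RNA of 16 astrocyte libraries was analysed, 4 per condition, grouped by the sample labels. Both wells of a litter came from the same mice per the labels, and log2 CPM centred on conditions had an r across genes between 0.07 and 0.35 within litters and between -0.09 and 0.18 for equal numbers of the other genotype, so litters were paired within genotype only. The authors quantified transcripts with Salmon 1.7.0 on GRCm39 and deposited an expected count, TPM and effective length for each of 129698 transcripts. The authors also deposited CPM from limma-voom (limma 3.58.1), a signal scaled by length and TMM library size, and its log2 values.

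Gene sums of the expected counts, taken over the 106440 transcripts paired with a RefSeq symbol (96.7% to 97.3% of reads), were rounded and tested with edgeR 4.0.16 in R 4.3.3 (quasi-likelihood test with offsets for length and TMM scaling, filterByExpr with 10 as the lowest count, Benjamini-Hochberg over 16066 genes, threshold 0.05). The paired transcript of *Dhx58* had 0 reads in 7 of the 8 vehicle libraries, so its values come from edgeR on counts recovered from the deposited CPM, a choice made after seeing the data. Responses and interaction used litters as blocks, and the genotypes were compared without litter terms. DESeq2 1.42.0, limma on log2 CPM, other scaling, filters, fits of each treatment alone and leaving out each litter were alternatives. In simulated data edgeR called 59.5% of 200 genes changed by 1 log2 unit in the interaction and 73.5% in the LPS + IFNγ genotype comparison. The simulated counts held no litter effects, and their spread was estimated with litters as blocks. The share for the genotype comparison therefore leaves out the spread between litters and does not give the sensitivity in the real data. Lists and plots used pandas 2.3.3, numpy 2.4.6 and matplotlib 3.10.9 in Python 3.11.15.

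Named were the 9 genes, *Nlrx1*, the genes with the most like profile, and the 2 genes of each list with the largest called change, while *Mavs*, *Atrip* and other genes with overlapping exons were added. The members and lists were chosen with earlier results of these data known. Gene positions are from GENCODE M39 and promoters from RefSeq. Depth limits the low genes, and the Poisson intervals of *Zbp1* cover counting error only. P-values of the responses and the interaction measure the spread of the responses between litters. Those of the genotype comparisons come from all 16 libraries without litter terms. They therefore count the wells of a litter as independent and do not measure the spread between litters alone. 1 marker of the microglia list is not reported here.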

Additional observations from a re-analysis of the deposited data

Results flagged for a closer look

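In 4 of 53 groups of 4 libraries or litters that were checked, 1 value stood far from the other 3, where chance alone gives about 1 in 20. *Trex1* in the LPS + IFNγ library of WT litter 3 was at 3.92 log2 CPM, and the other WT litters lay between 4.57 and 4.68. *Eif2ak2* in the vehicle library of WT litter 4 was at 5.43 log2 CPM, and the others lay between 5.59 and 5.61. The response of *Dhx58* in WT litter 2 was 4.25 log2 units, and those of the other WT litters lay between 5.31 and 5.40. The response of *Cgas* in WT litter 4 was 1.88 log2 units, and those of the others lay between 1.22 and 1.304.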

How the results depend on the processing

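The 9 calls in the WT response held under every alternative, as did those in the *Nlrx1*-/- response, apart from *Cgas* without the replicate block (0.86, adjusted p = 0.0528, 8 genes called). With the replicate number as a block across the genotypes, 0 genes were called in either treatment, as without it. DESeq2 called 1 gene higher in *Nlrx1*-/- in vehicle and 1 in LPS + IFNγ, and leaving out single litters gave 0 to 1 and 0 to 6. The ISRE core was in 0 windows before the start. The interaction had 0 calls among the 9 genes under every alternative. Some signs turned. The interaction of *Samhd1* was 0.00260 with DESeq2, 0.00437 with its size factors, 0.00274 without length offsets and -0.14 to 0.15 with litters left out, and that of *Dhx58* was -1.28 (edgeR) and -0.39 (DESeq2) on paired transcripts only, which hold almost none of its vehicle reads, alternatives added after seeing the data. On those transcripts its response was 11.96 (edgeR) and 11.37 (DESeq2) in WT and 10.69 and 10.98 in *Nlrx1*-/-, and its vehicle difference 2.20 (edgeR). With litters left out, *Nlrx1*-/- against WT ranged in vehicle from -0.25 to 0.00323 for *Rigi*, -0.10 to 0.66 for *Dhx58* and -0.0420 to 0.14 for *Trex1*, and in LPS + IFNγ from -0.00273 to 0.17 for *Adar*. Transcript shares ranged from -1.23 to 0.64 points for NM_011163.4 and -0.64 to 1.23 for XM_006523863.5 of *Eif2ak2*, and -3.57 to 0.27 for NM_019655.3 of *Adar*, and 4 to 6 transcripts were called, the added ones those of *Samhd1* without *Nlrx1*-/- litter 4 (adjusted p = 0.0469, exact test). The cause was not tested. In the simulated data, which held no litter effects, many differences of 1 log2 unit passed the test and many did not.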
